A study of Mus musculus with 8 samples.

Results

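The 7 genes of cholesterol synthesis described here were measured in young adult and aged mouse brain. They are Hmgcs1, Fdps, Fdft1, Sqle, Msmo1 and Dhcr7, which encode enzymes of the pathway, and Insig1, which encodes a regulator of it. The members were taken by symbol through the Ensembl gene ID, by a rule that uses no measured value although earlier results of these data were known when it was written, and all 7 had a row among the 22430 genes of the count table. The samples were whole brain hemispheres of 8 male mice of the inbred strain C57Bl/6JRj, with no treatment or modified allele named in the labels. Of these, 4 were young adults of 6 months (6m) and 4 were aged mice of 24 months (24m), with 1 library per mouse. Oxford Nanopore technology (ONT) was used to read native RNA directly, so that no amplification step came before the pore. The labels name a directional poly(A)+ kit instead, and the protocol given in the methods of the study is used here.

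Cholesterol does not cross the blood-brain barrier in useful amounts, so the brain makes its own, largely in glia and above all where myelin is laid down. The pathway starts from acetyl-CoA and runs through mevalonate to farnesyl diphosphate, joins farnesyl units into squalene, closes the rings of lanosterol and then trims lanosterol to cholesterol. Most of its genes are switched on by the transcription factor SREBP-2, which is encoded by Srebf2. When sterols are scarce, the escort protein Scap carries the SREBP precursor from the endoplasmic reticulum to the Golgi, where proteases release its active part. When sterols are plentiful, Insig1 and Insig2 hold Scap back. Insig1 is itself a target of SREBP, and so belongs to the genes that it restrains.

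The region from 250 bases before to 50 bases after the start of the canonical transcript (GENCODE vM39 on GRCm39) was searched on both strands for motifs known from this pathway. The sterol regulatory element, spelled TCACNCCAC and bound by SREBP, was matched in 1 of the 7 members (14.3%) and in 1.33% of the 22281 genes of the table with an annotated start. The CCAAT box, spelled CCAAT and bound by NF-Y, a partner of SREBP, was matched in 6 of 7 members (85.7%) and in 39.7% of those genes. The GC box, spelled GGGCGG and bound by Sp1, was matched in 4 of 7 members (57.1%) and in 41.4% of those genes. No spelling is contained in another. Among tested genes, the shares were 1.18%, 39.3% and 57.7% of 9349. Dhcr7 held none of the 3 spellings in this window. These are matches of letters in 1 window per gene, and sites elsewhere or with other spellings were not searched. The 30 bases around 1 match per gene are shown because 6 of the 7 members share this feature, which was not used to choose them. They read 5′ to 3′ on the strand of the gene, with the match in capitals, and ATTGG is CCAAT on the other strand.
Hmgcs1 sterol regulatory element, chr13:120151740-120151769, plus strand: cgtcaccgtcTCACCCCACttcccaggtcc
Hmgcs1 CCAAT box, chr13:120151885-120151914, plus strand: ctgagtcccgggATTGGcagaggtagccgc
Fdps CCAAT box, chr3:89009373-89009402, minus strand: gaggtaatttagCCAATcagcgaactaggc
Fdft1 CCAAT box, chr14:63415444-63415473, minus strand: ctccggcttccgATTGGttaacgttttcct
Sqle CCAAT box, chr15:59186807-59186836, plus strand: gtgcgcgctctcATTGGttcggacggcgtg
Msmo1 CCAAT box, chr8:65186970-65186999, minus strand: gatgaagccaagCCAATgtgagtagcaaga
Insig1 CCAAT box, chr5:28276182-28276211, plus strand: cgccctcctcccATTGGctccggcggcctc

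Counts on genes summed to between 573152 and 843706 in the 6m libraries and to between 660398 and 1255424 in the 24m libraries, so that 3 counts, the most that a count of 0 allows, stood for 2.30 to 5.42 CPM (counts set to a common library size after TMM scaling). The replicate 1 library of 24m stood somewhat apart, with a mean Spearman ρ of 0.923 to the other aged libraries over the tested genes, against 0.938 to 0.943 for the other 3, and results that turn on it are given without it. Markers of neurons, oligodendrocytes, astrocytes and microglia were read in all libraries, as the label of whole brain implies. Between the ages, the 9375 genes whose mean count exceeded 5 were compared with edgeR's quasi-likelihood test, in which padj is the Benjamini-Hochberg adjusted p over all genes tested and log2FC is positive when the gene was higher at 24m. A gene is named called where padj did not exceed 0.05 and the log2FC reached 0.58 in either direction. This applied to 14.5% of the tested genes, of which those called higher made 10.3% of the tested genes and those called lower 4.17%.

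The summed level of the 7 members was alike in range at both ages. The sums were 610.5, 672.6, 545.1 and 592.7 CPM in the 6m libraries and 599.0, 560.4, 579.7 and 630.5 CPM in the 24m libraries, so the ages overlapped fully. Most of the sum was Fdft1 and Fdps, with means of 210.7 and 203.1 CPM at 6m and 190.0 and 178.9 CPM at 24m. The sum therefore says little about the members with lower counts. All 7 members passed the filter on low counts, and 0 of 7 were called by edgeR, against 14.5% of all genes tested. DESeq2 on raw counts, DESeq2 on quantile-normalized counts and limma-voom also called 0 of 7. By edgeR, 0 of 7 reached a padj of 0.05 without the fold minimum, against 21.7% of all genes tested, and 2 of 7 (Hmgcs1 and Dhcr7) had an unadjusted p below 0.05, against 34.3%. The CPM of the ages did not overlap for 1 of 7 members (Dhcr7), against 21.1%. The members' log2FC ran from -0.28 to 0.67, with a median of 0.34, while the median over all tested genes was -0.003. A positive log2FC was seen for 4 members (Hmgcs1, Msmo1, Dhcr7 and Insig1). The 3 with a negative log2FC, Fdps, Fdft1 and Sqle, catalyse consecutive steps, which form farnesyl diphosphate, squalene and squalene epoxide in turn. The 95% intervals of 5 of the 7 members reached a log2FC of 0.58 in size, so changes of that size were not excluded for them at this depth. In bulk tissue, fewer cells of a type and less RNA per cell cannot be told apart.

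**Figure D1:**
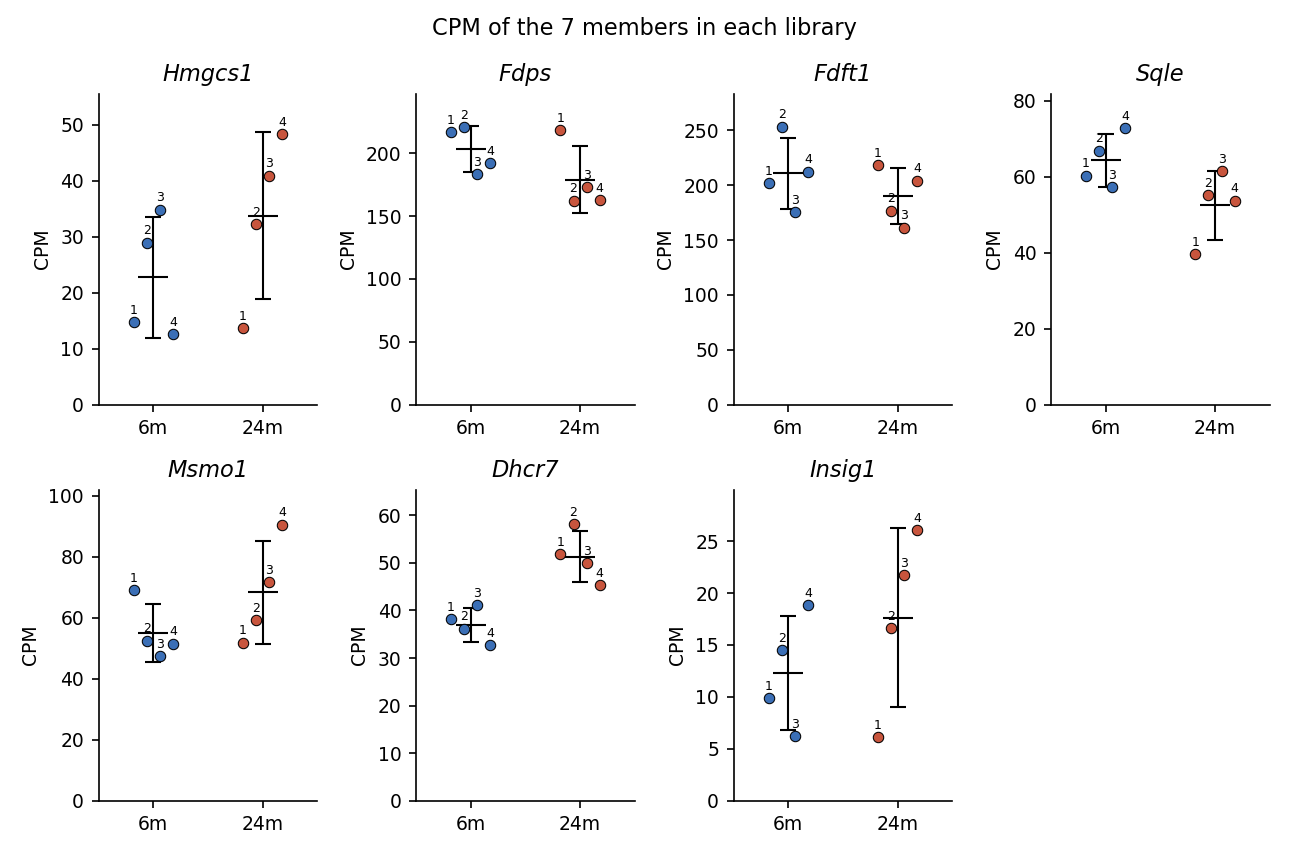
CPM (y axis, TMM-scaled, from 0) of each member in the 4 libraries of 6m (blue) and the 4 of 24m (red), with replicate numbers beside the points and the mean and SD in black. The ages are apart only for Dhcr7, at 32.6 to 41.1 CPM against 45.3 to 58.2 CPM, and overlap for the other 6 members.

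Hmgcs1 encodes the cytosolic HMG-CoA synthase, which acts at the entry to the mevalonate pathway (ENSMUSG00000093930, chr13:120151915-120170470, plus strand). It was read at 14.8, 28.9, 34.9 and 12.6 CPM in the 6m libraries and at 13.7, 32.2, 41.0 and 48.3 CPM in the 24m libraries. The libraries of both ages were widely spread, and replicate 1 of 24m lay among the lowest of the young libraries. The means were 22.8 ± 10.8 and 33.8 ± 14.9 CPM (SD, n = 4 per age). The log2FC was 0.67 (SE 0.31, 95% interval 0.04 to 1.30, edgeR padj = 0.12). These values rest on 9 to 63 counts per library. Hmgcs1 was called when replicate 1 of 24m was left out (log2FC 0.88, edgeR padj = 0.014), when replicate 3 of 6m was left out (log2FC 1.00, edgeR padj = 0.048) and when no filter on low counts was used (log2FC 0.69, edgeR padj = 0.032). Over the 21 alternatives its padj lay between 0.014 and 0.39. Hmgcs1 shares 77 exonic bases with Nim1k and 557 with the lncRNA Gm48342, both on the opposite strand. The means of Nim1k were 15.7 CPM at 6m and 11.2 CPM at 24m (log2FC -0.40, edgeR padj = 0.44). Whether the counting used strand is not given in the sources used here.

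Fdps encodes farnesyl diphosphate synthase, which makes the last intermediate that sterols share with dolichol, ubiquinone and prenylated proteins (ENSMUSG00000059743, chr3:89000888-89019213, minus strand). Its CPM were 216.6, 220.6, 183.0 and 192.1 at 6m and 218.0, 162.2, 172.8 and 162.6 at 24m. Of the aged libraries, 3 were below every young one, and replicate 1 of 24m was as high as the highest young libraries. The means were 203.1 ± 18.4 and 178.9 ± 26.5 CPM (SD, n = 4 per age), with a log2FC of -0.19 (SE 0.12, 95% interval -0.44 to 0.05, edgeR padj = 0.27). Without replicate 1 of 24m the log2FC was -0.28 (edgeR padj = 0.052). The annotation holds 4 pseudogenes that match the Fdps transcript at 95 percent identity or more over 78.6% to 81.3% of its length. None of them had a row in the table. The lncRNAs that overlap listed genes had none either, so this absence says nothing of reads from the copies. Reads that could be split between copies make the level of Fdps uncertain.

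Fdft1 encodes squalene synthase, the first enzyme committed to sterols (ENSMUSG00000021273, chr14:63382189-63417027, minus strand). Its CPM were 201.9, 253.1, 175.5 and 212.2 at 6m and 218.0, 176.7, 161.2 and 204.0 at 24m. Apart from a high young library and a low aged one, the ages lay over each other. The means were 210.7 ± 32.3 and 190.0 ± 25.7 CPM (SD, n = 4 per age), and the log2FC was -0.14 (SE 0.12, 95% interval -0.39 to 0.11, edgeR padj = 0.46). Fdft1 shares 1184 exonic bases with Ctsb, a lysosomal protease gene on the opposite strand, whose mean was 435.8 CPM at 6m and 574.5 CPM at 24m (log2FC 0.40, edgeR padj = 0.0025). The part of such reads in the value of Fdft1 was not tested.

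Sqle encodes squalene epoxidase, the oxygen-dependent enzyme that is a control point of the later pathway (ENSMUSG00000022351, chr15:59186869-59203043, plus strand). It was read at 60.3, 66.9, 57.2 and 72.8 CPM at 6m and at 39.6, 55.1, 61.4 and 53.7 CPM at 24m. Of the aged libraries, 3 lay below the young range, with replicate 1 the lowest, and replicate 3 lay within it. The means were 64.3 ± 6.96 and 52.5 ± 9.19 CPM (SD, n = 4 per age), with a log2FC of -0.28 (SE 0.16, 95% interval -0.61 to 0.06, edgeR padj = 0.24). Without replicate 1 of 24m the log2FC was -0.18 (edgeR padj = 0.44). Sqle shares 470 exonic bases with Washc5, a protein-coding gene on the opposite strand. The means of Washc5 were 32.7 CPM at 6m and 23.3 CPM at 24m (log2FC -0.50, edgeR padj = 0.15). Since the strand setting of the counting is not given, reads of the pair may not be told apart.

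Msmo1 encodes methylsterol monooxygenase 1, which starts the removal of the methyl groups at carbon 4 of the sterol ring (ENSMUSG00000031604, chr8:65170603-65186830, minus strand). Its CPM were 68.9, 52.4, 47.3 and 51.5 at 6m and 51.8, 59.3, 71.7 and 90.5 at 24m. Of the aged libraries, 3 were above 3 of the young ones, while replicate 1 broke the order at each age. The means were 55.0 ± 9.53 and 68.3 ± 16.9 CPM (SD, n = 4 per age), and the log2FC was 0.34 (SE 0.18, 95% interval -0.03 to 0.71, edgeR padj = 0.19). Without replicate 4 of 24m the log2FC was 0.17 (edgeR padj = 0.56), and without replicate 1 of 24m it was 0.45 (edgeR padj = 0.054).

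Dhcr7 encodes 7-dehydrocholesterol reductase, which turns 7-dehydrocholesterol, also the precursor of vitamin D, into cholesterol (ENSMUSG00000058454, chr7:143376740-143402149, plus strand). It was read at 38.2, 36.2, 41.1 and 32.6 CPM at 6m and at 51.8, 58.2, 49.9 and 45.3 CPM at 24m. Every aged library was above every young one. The means were 37.0 ± 3.54 and 51.3 ± 5.38 CPM (SD, n = 4 per age). The log2FC was 0.46 (SE 0.17, 95% interval 0.10 to 0.81), under the fold minimum, and padj missed its threshold (edgeR padj = 0.057). Over the 21 alternatives the log2FC lay between 0.39 and 0.57 and padj between 0.021 and 0.22. The padj was below 0.05 with library sizes alone (0.021), with more than 5 counts in every library (0.043), with filterByExpr (0.048) and without replicate 4 of 24m (0.036), each time with a log2FC under 0.58. Dhcr7 shares no exonic base with a gene listed in the annotation.

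Insig1 encodes the endoplasmic reticulum protein that retains Scap when sterols are plentiful (ENSMUSG00000045294, chr5:28276315-28283668, plus strand). Its CPM were 9.85, 14.5, 6.22 and 18.8 at 6m and 6.10, 16.6, 21.8 and 26.1 at 24m. The aged libraries held both the lowest and the highest value, and replicate 1 of 24m was the lowest. The means were 12.3 ± 5.49 and 17.6 ± 8.61 CPM (SD, n = 4 per age). The log2FC was 0.61 (SE 0.37, 95% interval -0.14 to 1.37, edgeR padj = 0.25), with 4 to 34 counts per library behind it. Without replicate 1 of 24m the log2FC was 0.85 (edgeR padj = 0.051), and without replicate 4 of 24m it was 0.34 (edgeR padj = 0.61).

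Some libraries were the lowest or the highest of their age for several members. The same ranks over all tested genes were not taken, so whether this is particular to the members was not tested. Of the aged libraries, replicate 1 was the lowest for 4 of the 7 members (Hmgcs1, Sqle, Msmo1 and Insig1) and the highest for 2 (Fdps and Fdft1), and replicate 4 was the highest for 3 (Hmgcs1, Msmo1 and Insig1). Of the young libraries, replicate 3 was the lowest for 5 members (Fdps, Fdft1, Sqle, Msmo1 and Insig1) and the highest for 2 (Hmgcs1 and Dhcr7). No member changed the sign of its log2FC under any of the 21 alternatives, of which the filter of more than 5 counts in every library left out Insig1.

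**Figure D2:**
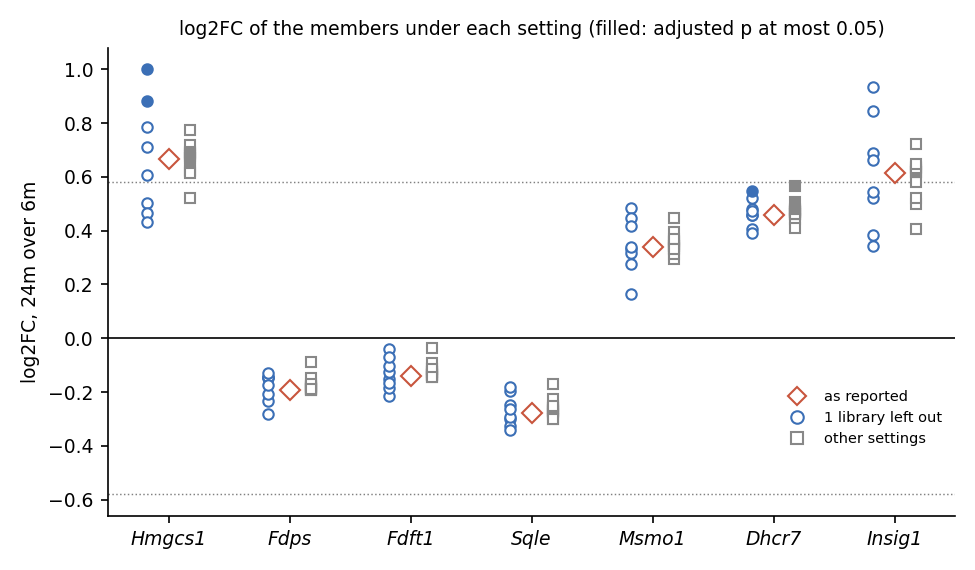
The log2FC of 24m over 6m (y axis) of each member as reported (red diamonds), with 1 library left out (blue circles) and under the other alternatives (grey squares), filled where edgeR or the other tool gave padj of at most 0.05, with dotted lines at the fold minimum of 0.58 in either direction. Filled points lie past the dotted line only for Hmgcs1, and no gene crosses 0.

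The profile of the members over the 8 libraries was compared with that of the 5164 tested genes with a mean count of at least 20 by the root mean square (RMS) difference of log2 CPM, each gene centred on its own mean over the libraries. The 5 genes outside the sterol lists nearest to the mean profile of the members were Mff, Psmd7, Rtn1, Eid2 and Cadm4, with an RMS difference of 0.062 to 0.081, where the median gene was at 0.32. The members themselves lay between 0.19 (Msmo1) and 0.52 (Hmgcs1) from their own mean profile, with Insig1 under the count minimum. Of these 6, 5 lay nearer to it than the median gene. Each member is part of that mean and is drawn toward it, so these distances cannot show whether the members share a profile. The mean profile ran only from -0.26 to 0.29, so genes with steady levels also lie near it.

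Of 15 other genes listed with sterol synthesis, 12 were tested, with a median log2FC of 0.0015. Of these, 0 were called higher and 2 were called lower, against 10.3% and 4.17% of all tested genes. Lss, Lbr and Hsd17b7 were under the filter. The list also holds Ggps1, which acts on a side branch from farnesyl diphosphate, and Erg28, which is not itself an enzyme. Pmvk, the phosphomevalonate kinase between Hmgcs1 and Fdps, fell with age. It was read at 125.5, 117.5, 138.2 and 136.9 CPM at 6m and at 80.8, 76.9, 74.2 and 101.2 CPM at 24m (log2FC -0.62, SE 0.14, edgeR padj = 0.0025). Tm7sf2, a sterol reductase at carbon 14, also fell, from 45.2 ± 8.15 to 29.0 ± 6.65 CPM (SD, n = 4 per age; log2FC -0.63, SE 0.20, edgeR padj = 0.029). The ages did not overlap for Pmvk or Tm7sf2, and with library sizes alone neither was called (log2FC -0.52 for each). Pmvk also missed the fold minimum with more than 5 counts in every library (log2FC -0.57) and without replicate 2 or 3 of 24m (log2FC -0.58 and -0.57). Tm7sf2 was not called by DESeq2 on raw or quantile-normalized counts, nor without replicate 1 or 3 of 6m (log2FC -0.58 and -0.52) or replicate 2 or 3 of 24m (log2FC -0.65 and -0.49). Tm7sf2 shares 532 exonic bases with Vps51 on the same strand, so reads of the pair may not be told apart. The means of Vps51 were 127.2 CPM at 6m and 119.7 CPM at 24m (log2FC -0.10, edgeR padj = 0.64).

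The remaining 10 tested genes of this list were not called. Sc5d, the desaturase just before Dhcr7, had a log2FC of 1.05 (edgeR padj = 0.058) and was called higher with library sizes alone (log2FC 1.16), with no filter (log2FC 1.08), with filterByExpr (log2FC 1.09) and without replicate 1 of 24m (log2FC 1.24) or replicate 2 of 6m (log2FC 1.32). Mevalonate kinase, Mvk, had a log2FC of -0.47 (edgeR padj = 0.059). Idi1 had a log2FC of 0.58 (edgeR padj = 0.28) and Ggps1 of -0.53 (edgeR padj = 0.24). Cyp51 (0.17) and Erg28 (0.19) were near 0, and the log2FC of Acat2, Mvd, Nsdhl and Ebp, between -0.07 and 0.02, changed sign with the processing.

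**Figure D3:**
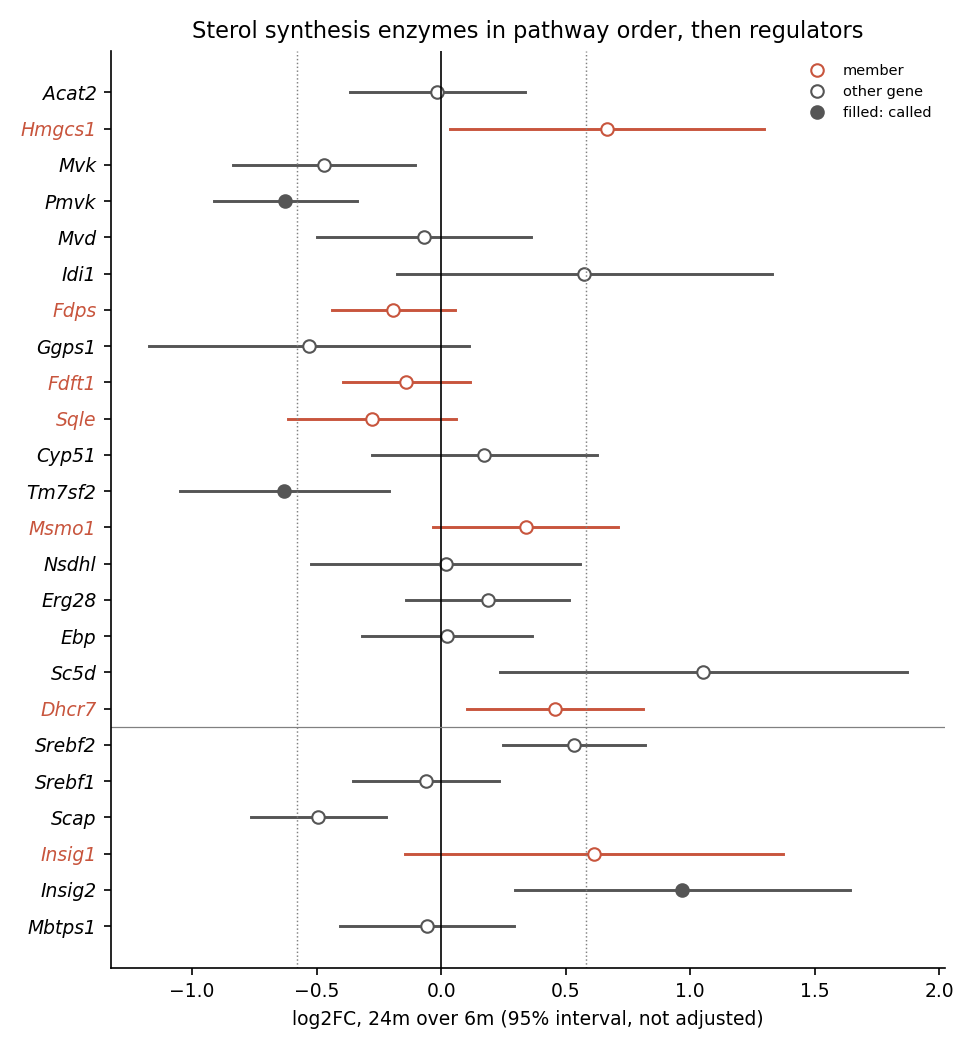
The log2FC of 24m over 6m (x axis) with its unadjusted 95% interval, with members in red and called genes filled. From the top are 18 tested genes listed with sterol synthesis, roughly in pathway order, then 6 tested regulators. Of the 18, Ggps1 acts on a side branch and Erg28 is not an enzyme. The members lie between -0.28 and 0.67 and are all open, while Pmvk, Tm7sf2 and Insig2 are filled.

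The genes that control SREBP gave values in both directions. Of 10 genes for SREBP control and sterol uptake, 5 were tested. Of these, 1 was called higher and none lower, against 10.3% and 4.17% of all tested genes. Srebf2, which encodes SREBP-2, was at 93.5, 108.5, 78.4 and 110.5 CPM at 6m and at 128.0, 150.8, 156.1 and 128.9 CPM at 24m. Every aged library was above the young range, and the padj passed its threshold with a log2FC of 0.53 under the fold minimum (SE 0.14, edgeR padj = 0.0077). Scap, which encodes the escort protein that Insig1 retains, was at 158.8, 166.4, 138.2 and 173.3 CPM at 6m and at 132.6, 97.7, 99.8 and 122.0 CPM at 24m. Every aged library was below the young range, again with padj past its threshold and log2FC under the minimum (log2FC -0.49, SE 0.13, edgeR padj = 0.0094). Under library sizes alone, which moved the median log2FC of all tested genes by 0.10, the log2FC of Srebf2 was 0.64, past both thresholds, and that of Scap was -0.39. Srebf2 also passed both thresholds without replicate 2 or 4 of 6m (log2FC 0.59 and 0.61) or replicate 4 of 24m (log2FC 0.60). Srebf2 shares 686 exonic bases with Shisa8 and 310 with the lncRNA Gm56711, on the opposite strand. Scap shares 1126 with 5830462I19Rik, 101 with Gm42638 and 53 with Ptpn23, also on the opposite strand. The part of such reads in the values of Srebf2 and Scap was not tested. Insig2, the other Insig gene, had means of 9.70 ± 2.65 CPM (6m) and 18.4 ± 4.28 CPM (24m, SD, n = 4 per age; log2FC 0.97, SE 0.33, edgeR padj = 0.035), without overlap of the ages. DESeq2 and limma-voom did not call Insig2, and it was not called without replicate 1, 3 or 4 of 6m (log2FC 0.86, 1.07 and 0.87) or replicate 4 of 24m (log2FC 0.79), with padj between 0.0096 and 0.19 over the alternatives. Srebf1 and Mbtps1, each at -0.06, changed sign with the processing.

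Sterols leave neurons mainly after hydroxylation by Cyp46a1 and are passed between cells on lipoproteins. Of 14 genes for sterol export, storage and turnover, 11 were tested, with a median log2FC of 0.18. Of these, 1 was called higher, near the share of 10.3% over all tested genes. Abcg4, a sterol transporter, was at 12.3, 7.23, 12.4 and 17.6 CPM at 6m and at 22.9, 34.3, 26.9 and 24.6 CPM at 24m (log2FC 1.09, SE 0.28, edgeR padj = 0.0069), with every aged library above the young ones. Cyp46a1 was at 175.7 ± 23.6 and 196.6 ± 22.5 CPM (SD, n = 4 per age; log2FC 0.17, edgeR padj = 0.35). Osbp, an oxysterol-binding protein, had a log2FC of 0.93 (edgeR padj = 0.082) and Cyp27a1 of -0.55, neither called.

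Fatty acid synthesis is driven in part by SREBP-1. Of the 16 listed enzymes, 14 were tested, with a median log2FC of 0.25. Of these, 4 were called higher and none lower, against 10.3% and 4.17% of all tested genes. At a padj of at most 0.05 without the fold minimum, 5 were higher and 1 lower. The lower one was Tecr, the most highly read of the list, at 1342 ± 35.2 and 1119 ± 106.5 CPM (log2FC -0.26, edgeR padj = 0.030). Its ages did not overlap. The called genes were the stearoyl-CoA desaturases Scd2 (38.7 ± 8.92 to 89.7 ± 29.1 CPM, log2FC 1.19, edgeR padj = 2.1e-04) and Scd1 (log2FC 1.22, edgeR padj = 0.046), the elongase Elovl5 (10.9 ± 1.99 to 25.7 ± 7.97 CPM, log2FC 1.29, edgeR padj = 0.0033) and the desaturase Fads1 (log2FC 0.63, edgeR padj = 0.020). These act on the desaturation and elongation of fatty acids. Scd1 rested on 1 to 6 counts per library at 6m and 4 to 20 at 24m. The ages overlapped for Scd1 (1.81 to 7.53 and 6.10 to 15.3 CPM) and for Fads1 (29.9 to 63.3 and 53.75 to 79.0 CPM). Fasn, fatty acid synthase itself, was at 163.0 ± 11.2 and 164.1 ± 17.4 CPM (log2FC -0.003, 95% interval -0.25 to 0.24, edgeR padj = 0.99). Scd1 was not called by DESeq2 or limma-voom, nor with a total count over 5 (log2FC 1.24, edgeR padj = 0.052), a replicate block (log2FC 1.19, edgeR padj = 0.053), nor without replicate 2 or 3 of 6m (log2FC 1.03 and 0.99) or replicate 2, 3 or 4 of 24m (log2FC 1.25, 1.20 and 1.04). Fads1 was not called by DESeq2, nor without replicate 1 or 3 of 6m (log2FC 0.61 and 0.47) or replicate 2 of 24m (log2FC 0.54).

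**Figure D4:**
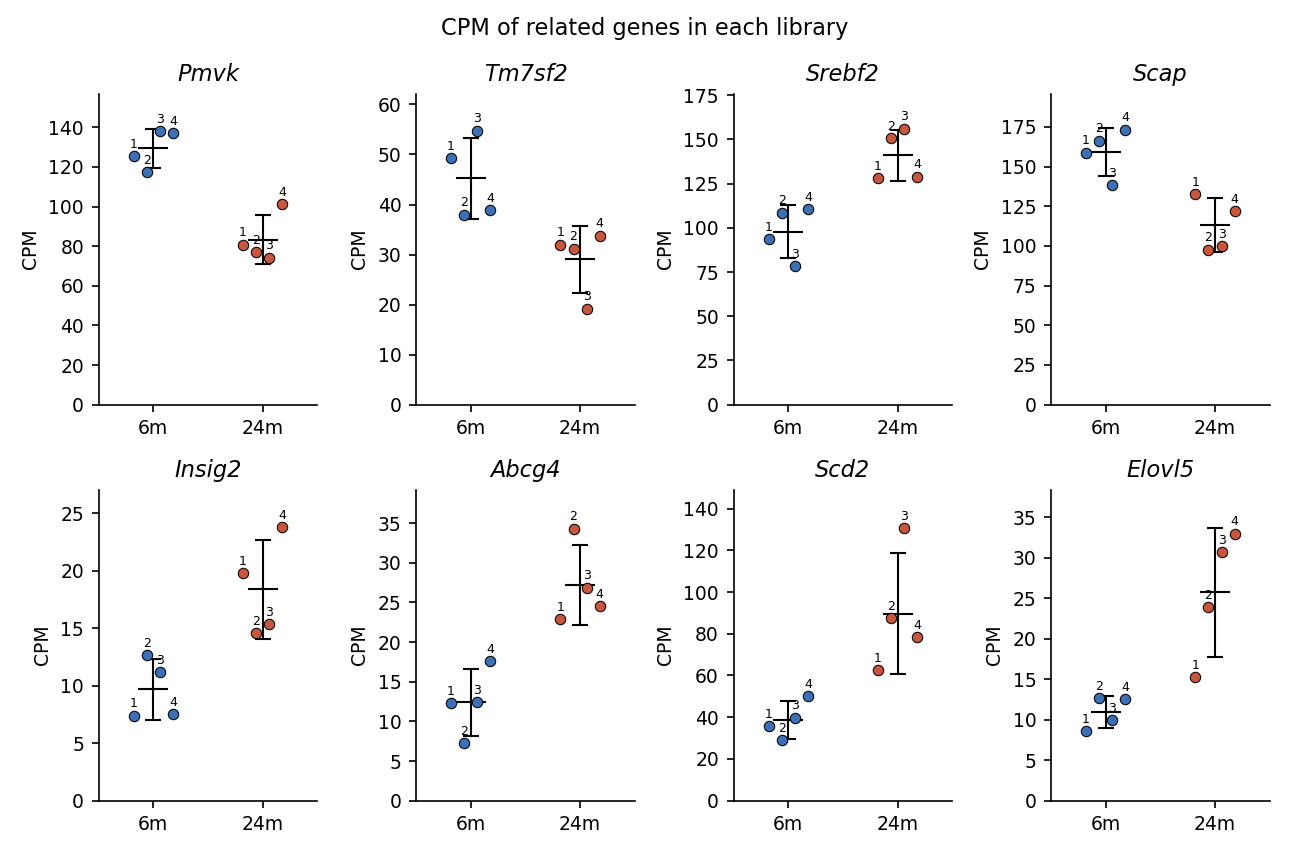
CPM (y axis, TMM-scaled, from 0) of 8 genes outside the members in the 4 libraries of 6m (blue) and 4 of 24m (red), with replicate numbers and the mean and SD in black. They were chosen after their values were seen, for a padj of at most 0.05 and no overlap of the ages, as the panels show. Tecr, which was lower at 24m, also met both conditions and has no panel.

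Markers of several cell types differed in level between the ages beside these values. The counts called below stand against 10.3% called higher and 4.17% called lower over all tested genes. The summed CPM of 9 oligodendrocyte markers lay between 2043 and 2606 at 6m and between 2767 and 3619 at 24m, with 1 of 9 called higher (Mbp), 2 of 9 with a negative log2FC and a median log2FC of 0.55. For 10 neuron markers the sums were 3031 to 3243 and 3723 to 3996 CPM, with 3 of 10 called higher and 2 with a negative log2FC. Of these 2, Tubb3 had means of 933.9 and 762.2 CPM (log2FC -0.30, edgeR padj = 0.035). For microglia the sums were 754.5 to 830.0 and 948.2 to 1190 CPM, with 2 of 8 tested markers called higher and 1 with a negative log2FC. Astrocyte markers overlapped in sum (2553 to 3038 and 2568 to 3303 CPM), with 3 of 7 tested markers called higher (Gfap, Slc1a3 and Gja1) and 1 lower (Slc1a2). Markers of oligodendrocyte progenitors and newly formed oligodendrocytes summed to 136.9 to 154.5 and 202.5 to 227.8 CPM, with 1 of 3 tested markers called higher. Most of that sum was Bcas1 (94.3 ± 6.60 and 130.8 ± 6.20 CPM, SD, n = 4 per age) and Sox10, a gene of the whole lineage (37.6 ± 6.10 and 64.6 ± 7.50 CPM), while the progenitor marker Cspg4 was at 9.09 ± 3.08 and 9.57 ± 3.36 CPM and Pdgfra, Gpr17, Enpp6 and Vcan were under the filter. Endothelial and mural markers (0 of 5 called) and choroid plexus markers (0 of 3) had median log2FC of -0.43 and -0.46. Blood cell markers were all called lower by edgeR (5 of 5), from 6090 to 10030 CPM at 6m to 3350 to 6283 CPM at 24m. DESeq2 on raw counts, DESeq2 on quantile-normalized counts and limma-voom called 4, 2 and 3 of them. Hba-a1 and Hba-a2 had nearly the same counts (1820 and 1786 in replicate 1 of 6m), so they may not be separate readings. No listed marker in the table was at 0 in every library. The part of these differences in the values of the members was not tested.

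Transcript length also moved with log2FC in these libraries. Over all tested genes with an annotated length, the median log2FC was -0.15 for canonical transcripts of up to 1744 bases, -0.02 up to 2642 bases, 0.10 up to 3675 bases, 0.11 up to 5132 bases and 0.04 above that. The canonical transcripts of the members measured 4097 (Hmgcs1), 1306 (Fdps), 3473 (Fdft1), 2807 (Sqle), 2614 (Msmo1), 2955 (Dhcr7) and 2739 bases (Insig1). Fdps was closest to its length class, 0.04 below the median of that class. Hmgcs1, Insig1, Msmo1 and Dhcr7 were 0.55, 0.52, 0.36 and 0.36 above, and the log2FC of Fdft1 and Sqle differed from the median of their class by -0.24 and -0.37. The part of length in the values of the members was not tested.

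**Figure D5:**
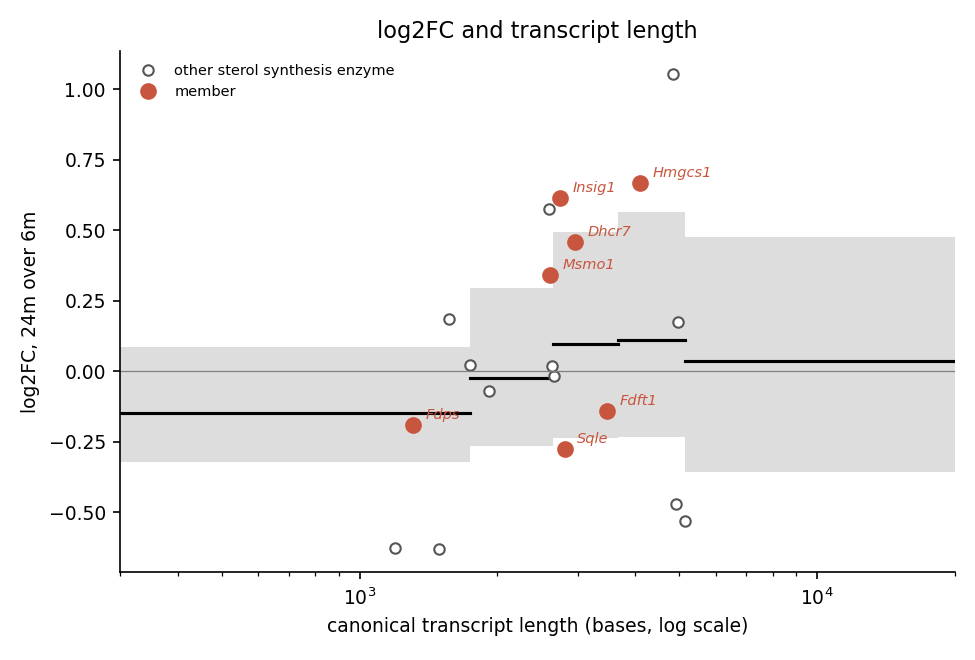
The log2FC of 24m over 6m (y axis) against canonical transcript length (x axis, bases, log scale). Shown are the 7 members (red) and 12 other tested genes listed with sterol synthesis (open). Behind them are the median (black line) and middle 50 percent (grey band) of all tested genes in 5 length classes. Fdps, the shortest member at 1306 bases, lies in the class with the lowest median (-0.15), and the other 6 members lie in the next 3 classes.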

How the data were processed

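RNA of 8 brain hemispheres, 1 per male mouse, was sequenced by the direct RNA protocol on a MinION. Per the methods and the submitters' processing notes, the authors mapped reads with minimap2 2.24 to GRCm39 and assigned them to genes with featureCounts. Raw counts per gene were deposited, before the low-count filter and quantile normalization of the study. Strand and multi-mapping settings are not given in the sources used here.

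Ages were compared with edgeR 4.0.16 in R 4.3.3, with TMM factors, genes with a mean count over 5, and a quasi-likelihood test with age as the only term and Benjamini-Hochberg adjustment over all 9375 genes tested. Calls needed a padj no higher than 0.05 and a log2FC of 0.58 or more in size. DESeq2 1.42.0, limma 3.58.1 (voom), other scalings and filters, a replicate block and each library left out were the alternatives. The code was tested on simulated data. CPM use TMM-scaled library sizes, and intervals are the model's 95% intervals, unadjusted.

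Gene positions, transcript lengths and starts were taken from GENCODE vM39 by Ensembl ID (22281 of 22430 genes matched), and near-identical copies were searched with BLAST+ 2.17.0. The members and lists were chosen with earlier results of these data known. Named genes were the 7 members, tested genes of the other sterol lists, called fatty acid enzymes with Scd2 and Fasn, at most 4 genes per marker list by smallest p, and the 5 genes nearest the members' mean profile. Some genes of these lists are not reported here and were left out of the list counts. Genes that overlap a member, a called enzyme, Srebf2 or Scap, marker genes under the filter, Tecr and Tubb3 were named outside this rule.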

Additional observations from a re-analysis of the deposited data

Results flagged for a closer look

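In each age, the CPM of the 4 libraries of the named sterol and fatty acid genes were examined for a library far from the other 3. Of 82 groups of 4, 5 held such a library, where chance gives about 4.1. None of the 5 was a group of a member. Nsdhl was at 36.2 CPM in replicate 2 of 6m, against 20.9 to 21.4 CPM in the others. Osbp was at 5.42 CPM in replicate 2 of 6m, against 6.15 to 6.28 CPM. These are 3 counts against 5 in each of the others, and 1 count in replicate 2 stood for 1.81 CPM. Srebf1 was at 103.6 CPM in replicate 4 of 24m, against 91.5 to 92.1 CPM. Mbtps1 was at 38.1 CPM in replicate 1 of 24m, against 55.0 to 55.2 CPM. Npc2 was at 113.9 CPM in replicate 3 of 24m, against 133.5 to 137.2 CPM.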

How the results depend on the processing

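Over 21 alternatives, the members called numbered 0, or 1 with no filter (Hmgcs1, log2FC 0.69) and 0 to 1 with 1 library left out (Hmgcs1, 0.43 to 1.00). Genes called among all tested fell from 1359 to 834 (DESeq2, raw counts) and 819 (DESeq2, quantile-normalized). Other sterol enzymes called, 2 as reported, were 1 with DESeq2 (raw or quantile) and over 5 counts in every library, 1 of the other direction with library sizes alone (Sc5d higher, 1.16, with both lower calls lost), 3 with no filter and filterByExpr (Sc5d higher beside both), and 0 to 3 with 1 library left out. SREBP and uptake genes called were 0 with DESeq2 (raw or quantile) and limma-voom, 2 with library sizes alone, no filter, a total count over 5 and over 5 counts in every library, 3 with padj alone, and 0 to 2 with 1 library left out. Export genes called were 0 of 6 tested with over 5 counts in every library, a filter that left out Abcg4 (4 counts in replicate 2 of 6m). Fatty acid enzymes called were 2 with DESeq2 on raw counts and 2 to 5 with 1 library left out. Signs changed for 8 of 40 sterol and fatty acid genes, all with log2FC near 0, and for 0 members. Acat2 became 0.0904 (library sizes alone), 0.0043, 0.0012, 0.0315 (no filter, total over 5, over 5 in every library) and 0.0076 (filterByExpr). Nsdhl became -0.0142 and -0.143 (DESeq2 raw, quantile), -0.0629 (voom) and -0.0346 (replicate block). With library sizes alone, Mvd became 0.0372, Srebf1 0.0455, Mbtps1 0.0509, Lcat 0.0236 and Fasn 0.103. Fasn also became 0.0014 and 0.0000 (DESeq2), 0.0021 (RLE), 0.0004 (upper quartile), 0.0059 (without mitochondrial genes), 0.0136, 0.0109 and 0.0421 (filters in the order above) and 0.0179 (filterByExpr). With 1 library left out, the ranges were -0.11 to 0.13 (Acat2), -0.17 to 0.0817 (Mvd), -0.25 to 0.22 (Nsdhl), -0.0481 to 0.14 (Ebp), -0.13 to 0.0319 (Srebf1), -0.12 to 0.0425 (Mbtps1), -0.13 to 0.0035 (Lcat) and -0.0494 to 0.0921 (Fasn). The cause was not tested. Same-numbered mice shared only a number: deviations of same-numbered libraries correlated at -0.160 to 0.0647, and with a replicate block 0 members and 1308 genes were called (Dhcr7 log2FC 0.46, edgeR padj = 0.086). The block also ended the call of Scd1 (1.19, edgeR padj = 0.053). Counting error and the spread between mice were not separated, and Insig1 and Hmgcs1 had the lowest counts of the members.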
